A study of Mus musculus with 2 samples.

Results

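Lin28a, Lin28b, Igf2bp1, Igf2bp2, Igf2bp3, Hmga1 and Hmga2 encode RNA-binding and chromatin proteins that are best known from embryonic tissues and from tumours that express them again, which is what the word oncofetal means. These 7 genes, taken by name, were all among the 43346 genes of the deposited tables. The tables come from total RNA-seq of whole intestine from mouse embryos of the strain B6NCrl, aged 14.5 embryonic days, starting with 10 ng of RNA above 200 nucleotides in size. Both libraries belong to 1 group with no mutation or treatment named, so the data hold no contrast between conditions and allow no test between groups. The labels give a single pup's intestine for each library. By calendar date, replicate 2 was collected on day 15 of the month and replicate 1 on day 17, both at 14.5 embryonic days. Their pup, dam and donor entries are identical and the sex is entered as pooled, so embryo and collection day cannot be told apart.

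Lin28a and Lin28b bind the loop of let-7 precursors and block their maturation, and Lin28a recruits the uridylyltransferase Tut4 to the precursor. Mature let-7 in turn represses mRNAs that carry matches to its seed, and Lin28a, Lin28b, Hmga2 and Igf2bp1 are textbook targets. The Igf2bp proteins bind mRNAs such as Igf2, Actb and Myc, including ones that carry the methylated base m6A, and affect their stability, transport and translation. Hmga1 and Hmga2 are small proteins that bind the minor groove of AT-rich DNA through AT-hooks and alter chromatin in growing cells.

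The let-7 family is shown first because matches to its seed were searched for in every member. RefSeq (GRCm38.p6) lists 9 let-7 family names with a 5p arm in the mouse, miR-98 among them. All 9 share the seed GAGGUAG (bases 2 to 8 of the mature miRNA, in capitals below), which 11 of 1679 mature mouse miRNA names carry. Of the 9, 4 are shown, so that the shared seed can be seen beside the bases that vary.
mmu-let-7a-5p: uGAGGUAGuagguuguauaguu
mmu-let-7d-5p: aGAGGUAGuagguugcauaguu
mmu-let-7e-5p: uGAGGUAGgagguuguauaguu
mmu-let-7g-5p: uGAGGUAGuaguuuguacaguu

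Lin28 proteins recognise GGAG in the loop of let-7 precursors through their zinc knuckles. These letters, searched on the RNA strand between the 2 mature arms and up to 4 bases into the 3p arm, occur in 9 of 12 let-7 family hairpins in the RefSeq table. Over the 644 mouse hairpins with both arms annotated, 9.01% hold them. The hairpins of Mir98, Mirlet7b and Mirlet7c-2 have no GGAG in this window. One hairpin with it (capitals mark GGAG) and one without it are shown.
Mirlet7g: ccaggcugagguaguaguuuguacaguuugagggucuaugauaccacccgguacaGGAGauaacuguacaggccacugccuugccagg
Mirlet7b: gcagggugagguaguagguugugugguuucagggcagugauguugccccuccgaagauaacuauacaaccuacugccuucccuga

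The let-7 RNAs themselves were not measured in a readable way. Their hairpins are 83 to 108 bases long and the RNA was longer than 200 nucleotides. The tables list 10 let-7 miRNA genes, all at 0 counts in both libraries, with effective lengths of 0 to 9 bases. A value of 0 there says nothing about the level of let-7.

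The 3′ UTRs of the members were searched for CTACCTC, the complement of the seed, on the transcript strand, in the GENCODE M21 coding transcript with the highest deposited TPM. Every member held at least 1 match, 17 in all, against 7.78% of 19120 3′ UTRs of coding genes. Since Lin28a, Lin28b, Hmga2 and Igf2bp1 are known let-7 targets, matches in them describe the choice of members and are no new finding. Hmga2, Lin28b and Igf2bp1 held 4 each, a number that 9 of the 19120 3′ UTRs, theirs included, reached or passed. Lin28a held 2, and Igf2bp2, Igf2bp3 and Hmga1 held 1 each. In 9 of the 17 matches the base after the seed match is an A, giving CTACCTCA, and Hmga1 was the only member with no such longer match. The first match after the stop codon of each member is shown in a window of 30 bases from GRCm38, all within the 3′ UTR exon, with the match in capitals.
Lin28a, chr4:134005178-134005207, minus strand: agcctgttgaaCTACCTCAtttttgccgat
Lin28b, chr10:45381011-45381040, minus strand: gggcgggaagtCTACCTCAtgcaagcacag
Igf2bp1, chr11:95961767-95961796, minus strand: tgcgaagtaaaCTACCTCAaggtgtgaagt
Igf2bp2, chr16:22059462-22059491, minus strand: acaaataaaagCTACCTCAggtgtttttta
Igf2bp3, chr6:49086776-49086805, minus strand: tttttactcaaCTACCTCAggtattcagta
Hmga1, chr17:27563281-27563310, plus strand: ctgttcacaaaCTACCTCtggacggttgtg
Hmga2, chr10:120364213-120364242, minus strand: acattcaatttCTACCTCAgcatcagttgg

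Longer 3′ UTRs hold more matches, and the member 3′ UTRs range from 1179 bases (Hmga1) to 6337 (Igf2bp1) against a median of 755 over all scanned. Among 3′ UTRs within 1.25 times its length, the share with at least as many matches, the member itself included, was 0.0565% for Hmga2, 0.438% for Lin28b, 0.536% for Igf2bp1 and 2.2% for Lin28a. The 3 members with a single match were less set apart by this count, at 8.25% for Hmga1, 12.4% for Igf2bp2 and 13% for Igf2bp3. Per kilobase of 3′ UTR, Hmga2 had 1.34 matches, Lin28b 0.9, Hmga1 0.848, Lin28a 0.721, Igf2bp1 0.631, Igf2bp2 0.561 and Igf2bp3 0.472. Hmga2 and Lin28b also carry a longer match close to the stop codon, 21 and 36 bases after it. A match is a run of letters, and neither binding nor repression was measured.

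**Figure D1:**
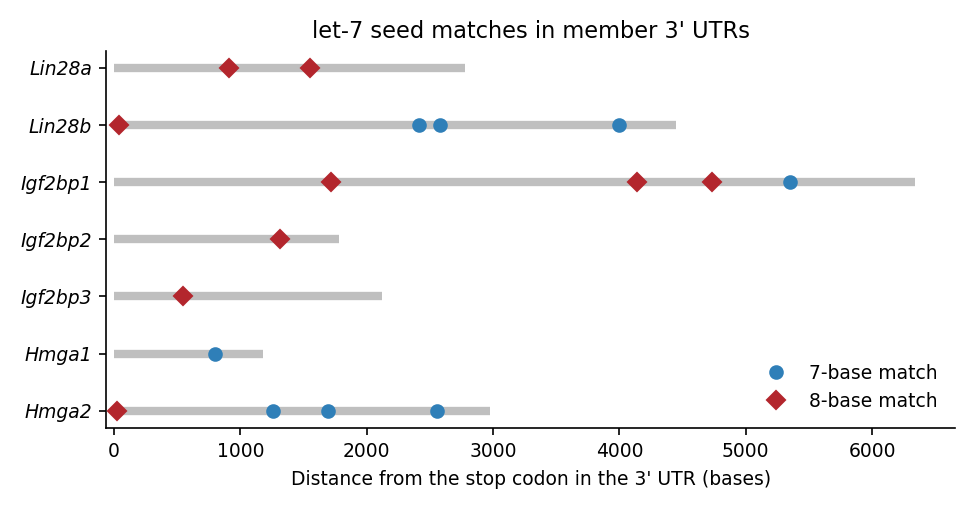
Positions of let-7 seed matches (points) along the 3′ UTR of the leading coding transcript of each member (grey bars, length in bases from the stop codon). Circles are matches of 7 bases and diamonds of 8; Hmga2, Lin28b and Igf2bp1 have 4 matches each and Igf2bp2, Igf2bp3 and Hmga1 have 1.

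The libraries held 34504419 (replicate 1) and 34042802 (replicate 2) estimated counts over all features, of which 4.54% and 4.91% fell in ERCC spike-ins. All markers fixed for epithelium (8 genes), mesenchyme (6), smooth muscle (5), enteric nervous system (6), endothelium (5) and macrophages (5) were detected, with sums that differed by ratios (replicate 2 over replicate 1) of 0.889 to 1.08. Replicate 2 stood apart in pancreas markers, whose 10 genes summed to 1203 TPM against 9.94 in replicate 1, where Ctrb1, Ins2 and Ptf1a were at 0 counts. Erythroid markers (6 genes) summed to 7507 and 10924 TPM. TPM is the level of a transcript per unit of length, as a share of all features of a library, and can be compared between genes. In whole tissue, fewer cells of a type and less RNA per cell cannot be told apart.

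At the level of the whole organ, 5 of the 7 members were detected, meaning a TPM of at least 1 in both libraries, a rule that 61.3% of protein-coding genes passed. The detected members were the 3 Igf2bp genes and both Hmga genes, while both Lin28 genes fell short. The median member lay at 50.7 TPM, against 4.89 over all protein-coding genes. From the highest down, the order of the mean levels was Hmga1, Igf2bp2, Igf2bp3, Hmga2, Igf2bp1, Lin28b and Lin28a, and it was the same in each library. The deposited TPM intervals of neighbours in this order did not overlap in either library, except those of Lin28b and Lin28a. Together the members made up 591 and 571 TPM in replicates 1 and 2, which is 0.0655% and 0.0638% of the TPM of all genes.

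**Figure D2:**
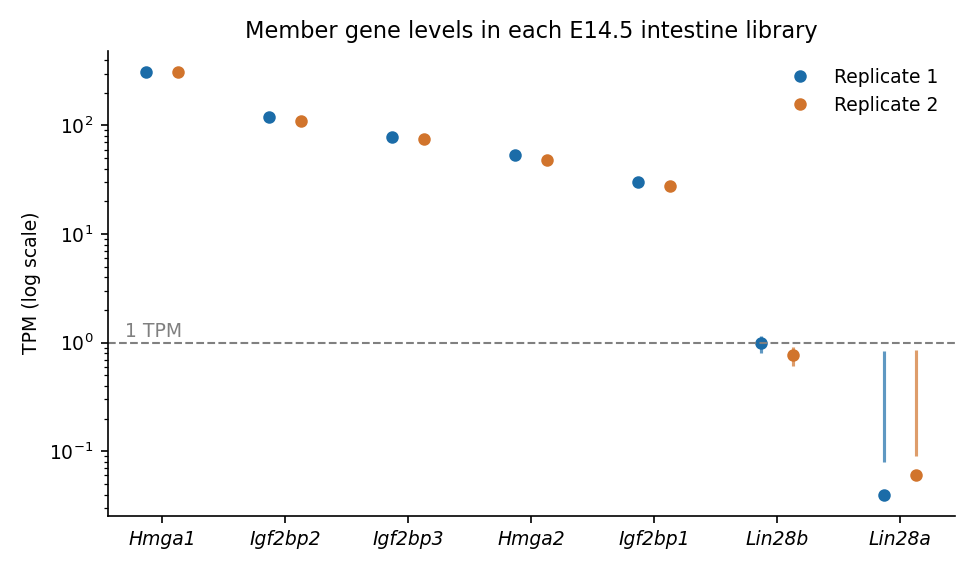
TPM of each member (log axis) in replicate 1 (blue) and replicate 2 (orange), with the deposited interval as a line; intervals narrower than a point are hidden by it, and the dashed line is 1 TPM. Hmga1 leads near 309.5 TPM, the 3 Igf2bp genes and Hmga2 lie between 28.8 and 115, and the Lin28a points lie below their own intervals.

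Hmga1 (ENSMUSG00000046711.11, chr17:27556497-27563674, plus strand) was the highest member. It had 308 TPM in replicate 1 and 311 TPM in replicate 2, from 10509 and 10703 counts, with deposited intervals of 295 to 308 and 297 to 311. The mean was 309.5 ± 1.64 TPM (SD, n = 2), a level above that of 98.2% of 21461 nuclear protein-coding genes. Its libraries overlapped and were the closest of any member, with a coefficient of variation of 0.53%.

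Hmga2 (ENSMUSG00000056758.10, chr10:120361275-120476469, minus strand), the paralog known for its let-7 sites and its role in body size, was lower. It had 53.6 TPM in replicate 1 and 47.8 TPM in replicate 2, from 4495 and 4050 counts, a mean of 50.7 ± 4.13 (SD, n = 2). Hmga1 exceeded it 5.75-fold in replicate 1 (95% counting interval 5.55 to 5.96) and 6.5-fold in replicate 2 (6.27 to 6.74), per length. Of the 362 and 358 TPM of the pair, Hmga1 held 85.2% and 86.7%.

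Igf2bp2 (ENSMUSG00000033581.12, chr16:22059009-22163299, minus strand) led the Igf2bp family by the TPM of the whole gene, noncoding transcripts included. It had 120.0 TPM in replicate 1 and 109 TPM in replicate 2, from 9016 and 8339 counts, a mean of 115 ± 7.71 (SD, n = 2). Igf2bp3 (ENSMUSG00000029814.8, chr6:49085223-49214957, minus strand) had 78 TPM and 75.5 TPM, from 7694 and 7526 counts, a mean of 76.8 ± 1.81 (SD, n = 2). Its deposited intervals, 74.3 to 77.8 and 71.9 to 75.3, ended just below these TPM values. Igf2bp1 (ENSMUSG00000013415.5, chr11:95957163-96005940, minus strand), the zipcode-binding protein of Actb mRNA, had 30.1 TPM and 27.5 TPM, from 5230 and 4880 counts, a mean of 28.8 ± 1.82 (SD, n = 2). The family order by gene TPM was thus the same in both libraries. Its members lay above 94.2% (Igf2bp2), 91% (Igf2bp3) and 77.1% (Igf2bp1) of nuclear coding genes.

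Of the family's 228 TPM in replicate 1, Igf2bp2 held 52.6%, Igf2bp3 34.2% and Igf2bp1 13.2%. In replicate 2 the shares of 212 TPM were 51.5%, 35.6% and 13%. Igf2bp2 exceeded Igf2bp3 1.54-fold (95% counting interval 1.49 to 1.59) and 1.45-fold (1.4 to 1.49) in replicates 1 and 2. Igf2bp3 exceeded Igf2bp1 2.6-fold (2.51 to 2.69) and 2.75-fold (2.65 to 2.85). These shares and ratios are of gene totals. By transcripts annotated as coding, Igf2bp2 was estimated below Igf2bp3, as given with the isoform shares below.

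Lin28b (ENSMUSG00000063804.7, chr10:45376620-45486395, minus strand) sat at the detection threshold. It had 1.00 TPM in replicate 1 and 0.77 TPM in replicate 2, from 123 and 96 counts, a mean of 0.885 ± 0.163 (SD, n = 2), above 36.6% of nuclear coding genes. Its intervals, 0.811 to 1.16 and 0.612 to 0.913, overlapped between libraries. It therefore passed 1 TPM in replicate 1 and not in replicate 2, and on replicate 1 alone 6 members were detected.

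Lin28a (ENSMUSG00000050966.5, chr4:134003330-134018841, minus strand) was the lowest member. It had 0.04 TPM in replicate 1 and 0.06 TPM in replicate 2, from 3 and 5 counts, whose 95% Poisson intervals are 0.619 to 8.77 and 1.62 to 11.7 counts. These intervals cover counting error only, and a level this close to a few reads could not be measured at this depth. The deposited gene intervals, 0.0798 to 0.83 and 0.0908 to 0.848 TPM, lie above the TPM itself, since they centre on a posterior mean that gives weight to 3 short Lin28a transcripts with 0 counts. That of the only Lin28a transcript with counts ran from 0.00906 to 0.098 and from 0.0213 to 0.132 TPM. Per length, Lin28b exceeded Lin28a 26.3-fold in replicate 1 (95% counting interval 8.8 to 129) and 12.3-fold in replicate 2 (5.1 to 38.8). By the posterior mean TPM, which adds the short Lin28a transcripts, the ratios were only 2.39 and 1.77, so the size of this gap depends on the estimate used.

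The step from Igf2bp1 to Lin28b was the widest between neighbours with more than a few counts, at 30.1-fold in replicate 1 (25.2 to 36.3) and 35.7-fold in replicate 2 (29.1 to 44.1). The members therefore fell into a group of 5 at 28.8 TPM or more and a pair at under 1.

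**Figure D3:**
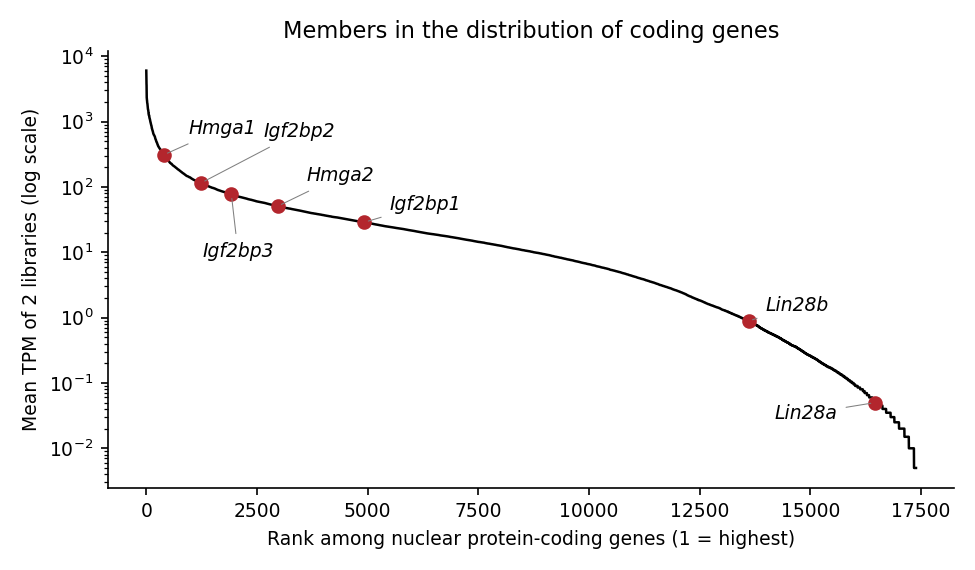
Mean TPM (log axis) of nuclear protein-coding genes with a value above 0, ordered from the highest (line), with the members as red points. Hmga1 ranks 393 of 21461, Igf2bp1 4925, Lin28b 13601 and Lin28a 16455.

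Lin28a and Pou5f1 are markers of early germ cells, which can lie near the gut, so germ cell genes were read beside the Lin28 genes. Of 10 germ cell markers, 2 were detected, Prdm1 and Nanos3, beside 61.3% of all protein-coding genes. Prdm1 is also made by fetal gut epithelium, and Nanos3 had 1.98 and 1.82 TPM from 29 and 27 counts. The list summed to 26.5 and 23.2 TPM in replicates 1 and 2, of which Prdm1 made up 23.5 and 20.2 TPM. Pou5f1 was at 0.1 and 0.03 TPM, from 3 and 1 counts. Ddx4 was at 0.32 and 0.6 TPM and Dppa3 at 0 counts in both libraries. The part of germ cells in the Lin28 values was not tested.

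Between the libraries, no member differed by the rule used, which asked for a mean TPM of at least 1, a change of at least 1 in log2(TPM + 1) and deposited intervals that lay apart. Of all genes at that mean, 0.662% met it. The deposited intervals lay apart for 2 of the 5 members at that mean, Igf2bp2 and Hmga2, as they did for 21.0% of genes. Both were lower in replicate 2, which was so with intervals apart for 14.4% of genes. Igf2bp2 was lower by a log2 TPM difference (replicate 2 minus replicate 1) of -0.14 and Hmga2 by a difference of -0.17. Among coding genes within 1.25 times their level, 37.6% (Igf2bp2) and 27.8% (Hmga2) had intervals apart, with median absolute log2 differences of 0.09 and 0.10.

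TPM was lower in replicate 2 for 4 of the 5 members at a mean of at least 5, beside 63.1% of coding genes at that mean, whose median log2 difference was -0.052. For Igf2bp1, Igf2bp3 and Hmga1 the log2 TPM differences were -0.13, -0.05 and 0.01. The differences of Igf2bp3 and Hmga1 were too near 0 for a direction, since each scaling shifts all members by about the same amount. Igf2bp3 was at 0.00 with TMM factors and at -0.13 when libraries were scaled by their spike-ins, and Hmga1 at 0.06 and -0.07. Igf2bp1, Igf2bp2, Hmga2 and Lin28b were lower in replicate 2 under TMM, DESeq2 and spike-in scaling as well, with Hmga2 from -0.12 to -0.24. The part of the pancreas and erythroid markers, which were higher in replicate 2, in these small differences was not tested.

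Which transcripts carry these levels was read from the deposited isoform shares, the percent of a gene's TPM in each transcript. In 5 members 1 coding transcript held at least 80% of the gene. Igf2bp3-201 and Lin28b-201 are the only transcripts of their genes in the tables and so hold 100%. Lin28a-201 also held 100%, on 3 and 5 counts. Hmga2-201 held 99.7% and 99.4% in replicates 1 and 2. Igf2bp1-201 held 89.7% and 90.6%, and the noncoding Igf2bp1-202 held 5.57% and 5.21% on 23 and 19.9 counts.

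Igf2bp2 was divided between a transcript annotated as coding and one annotated as a retained intron. Igf2bp2-207, the retained-intron form, held 49.1% and 48% of the gene in replicates 1 and 2, and Igf2bp2-201, which encodes 592 residues, held 39.9% and 41.4%. Another retained-intron transcript, Igf2bp2-205, held 5.24% and 4.57%. The 5 retained-intron transcripts summed to 59.8% and 57.1%. The TPM intervals of Igf2bp2-207 and Igf2bp2-201 were 53.1 to 61.5 and 42.8 to 50.1 in replicate 1 but overlapped in replicate 2, at 46.3 to 55.3 and 40.1 to 47.5, so the order of the pair was not told apart.

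Most of Igf2bp2-207 is sequence that it shares with the coding form. Of its 3267 bases, 99.8% are exonic in Igf2bp2-201 and 8 are its own, at chr16:22089111-22089118, where the transcript begins just before the third exon of Igf2bp2-201. It lacks the first 2 exons of Igf2bp2-201, chr16:22162786-22163299 (514 bases, with the start codon) and chr16:22161246-22161306 (61 bases), which hold 239 coding bases together. Reads within the shared exons do not tell these transcripts apart. Transcripts annotated as coding summed to 39.9% and 42.7% of Igf2bp2 TPM. Igf2bp2-201 had 47.9 and 45.2 TPM in replicates 1 and 2, below the 78 and 75.5 TPM of Igf2bp3-201. The lead of Igf2bp2 in its family therefore holds for the gene total and not for the coding transcripts.

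Hmga1 was divided between splice forms that differ in an internal coding block. Hmga1-203 held 46.4% and 43.8% of the gene in replicates 1 and 2, and Hmga1-201 held 38.6% and 43%. Hmga1-206 held 7.52% and 6.98%, and Hmga1-204 held 5.69% and 4.55%. The TPM intervals of the leading pair overlapped in both libraries, at 125 to 149.7 and 106 to 130.4 in replicate 1 and at 122 to 145 and 119 to 142 in replicate 2. In M21, transcripts annotated with 106 or 107 residues are the long form, known as Hmga1a at the protein level, and those with 96 residues the short form. The long form summed to 55.7% of the gene in replicate 1 and 52.5% in replicate 2, and the short form to 44.3% and 47.5%. The shares were estimated on the M4 models, whose lengths (1635 bases for Hmga1-203 and 1593 for Hmga1-201) differ from those in M21 (1595 and 1631), and whether the M4 models differ by the same coding block was not tested.

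The longest coding block that separates Hmga1-203 from Hmga1-201 is 33 bases (11 codons, in frame). It ends exon 2 of Hmga1-203, chr17:27559671-27559703, plus strand. In turn, Hmga1-201 holds 3 coding bases that Hmga1-203 lacks, chr17:27562438-27562440. The block of 33 bases is shown in capitals with 9 bases of the GENCODE M21 transcript on each side. It is the sequence that is present in Hmga1-203 and spliced out of Hmga1-201.
Hmga1-203: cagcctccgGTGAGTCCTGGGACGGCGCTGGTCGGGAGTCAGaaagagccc

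The level of Hmga1 shares reads with a near copy. Hmga1b (ENSMUSG00000078249.5, chr11:120762794-120764419), a gene in 1 exon that is not the short protein form of the same name, is 99.8% identical to Hmga1-203 over 1595 aligned bases. It was assigned 252 and 198 counts, 2.34% and 1.82% of the counts of the pair, and 7.1 and 5.52 TPM. Its gene intervals were wide, 5.54 to 18.1 and 4.16 to 17.9 TPM in replicates 1 and 2. They take in Hmga1b-202, a transcript of 120 bases with 0 counts, whose upper bounds were 10.7 and 12.2 TPM. The intervals of Hmga1b-201, which held all the counts, were narrower, 5.15 to 8.94 and 3.93 to 7.13 TPM. With the copy added, Hmga1 came to 315 and 316 TPM.

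**Figure D4:**
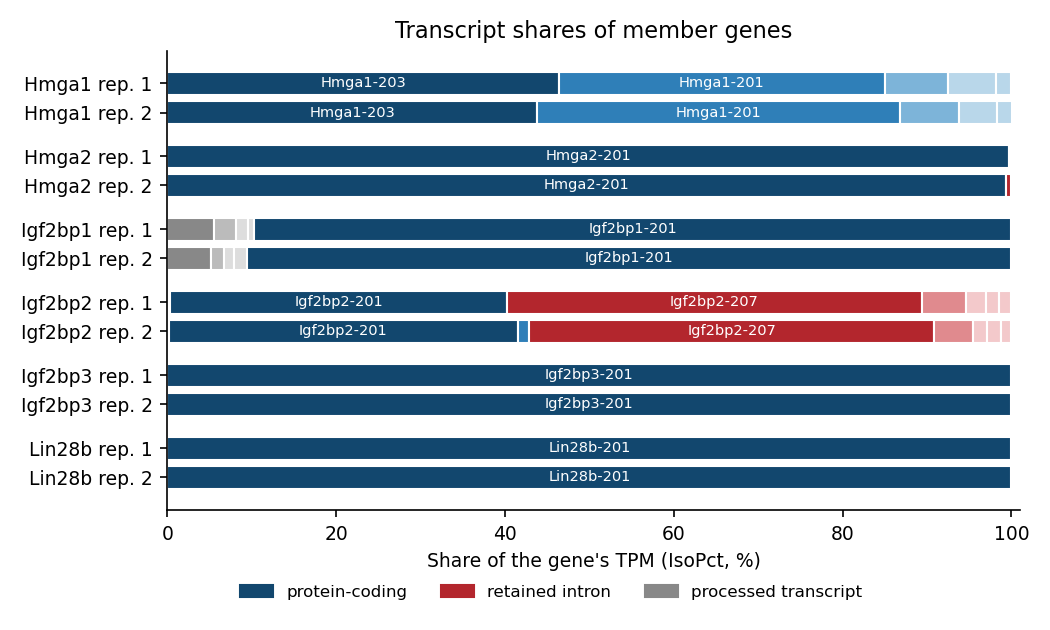
Share of each gene's TPM (percent) in its transcripts, with 1 bar per library, blue for coding, red for retained-intron and grey for processed transcripts; transcripts with at least 20% are named. Hmga1 and Igf2bp2 are divided between 2 leading transcripts in both libraries, and in the other genes shown 1 transcript leads.

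RefSeq promoter windows (GRCm38.p6, 250 bases before to 50 after the start) were at hand for 6 members, all but Igf2bp1. Counted on either strand, the dinucleotide CG occurred 47 times in the window of Igf2bp2, 40 and 38 times in the 2 windows of Hmga1, 25 times for Igf2bp3, 12 for Hmga2, 10 for Lin28a and 8 for Lin28b, against a median of 7 over 32851 windows. The share of all windows with at least as many was 1.44% for Igf2bp2 and 3.91% and 4.95% for the windows of Hmga1. It was 18.4% for Igf2bp3, 39.6% for Hmga2, 43.5% for Lin28a and 48.6% for Lin28b. The RefSeq start inside the Lin28b window is the first base of Lin28b-201, the only Lin28b transcript in the tables. That base lies 16194 bases inside the gene as M21 draws it.

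The genes around the members were read from lists by role. For scale, 61.3% of protein-coding genes passed the detection rule. The median was 4.89 TPM over all protein-coding genes and 18.4 TPM over the detected ones, so list medians near 18.4 TPM are ordinary for detected genes. All 25 genes of let-7 processing and Lin28 cofactors were detected, with a median of 21.7 TPM. The 3 highest were Hnrnpa1, an RNA-binding protein that also binds let-7 precursors, at 681 and 620 TPM, the helicase Ddx5 of the Drosha complex at 277 and 264 TPM, and the Dicer partner Tarbp2 at 82.8 and 82.1 TPM. The lowest of the 25, Ago4, had 1.09 and 1.06 TPM (a name chosen after its values were seen).

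Of 36 other genes listed as let-7 targets, 35 were detected, with a median of 24.2 TPM, and 25 (69.4%) held CTACCTC in the 3′ UTR. The cyclin gene Ccnd2 led with 238 and 227 TPM, before the zinc finger gene Plagl1 at 226 and 207 TPM and the ribonucleotide reductase subunit Rrm2 at 128 and 125 TPM. Prtg, a surface protein of early embryos, missed the threshold at 0.89 and 0.65 TPM. Such lists are compiled in part from seed matches, so the share with a match is a description of the list.

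All 16 mRNAs listed as bound by Igf2bp proteins were detected, with a median of 22.3 TPM. Actb, the cytoskeletal actin, had 6355 and 5690 TPM, the imprinted RNA H19 had 942 and 959.8 TPM, and the growth factor Igf2 had 746 and 796 TPM. Their 12 partners in ribonucleoprotein complexes were also all detected, at a median of 98.4 TPM, led by Ybx1 at 542 and 566 TPM, the poly(A)-binding protein Pabpc1 at 405 and 435 and the nuclear matrix protein Matr3 at 324 and 296. All 18 writers, erasers and other readers of m6A were detected, at a median of 33.1 TPM, led by Hnrnpa2b1 at 403 and 384 TPM, Hnrnpc at 228 and 194 and the writer subunit Wtap at 103 and 94.5.

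Of 12 other HMG box and nucleosome-binding genes, 11 were detected, with a median of 62 TPM. Hmgn2 had 2182 and 2009 TPM, Hmgb1 1066 and 988 TPM and Hmgn1 501 and 461 TPM, so Hmga1 ranked after these 3 and before the others. Hmgb4, known from testis, was at 0 counts in both libraries, where the limit a count of 0 allows is 3 counts. Of 18 other oncofetal and embryonic growth genes, 16 were detected, with a median of 37.5 TPM, led by H19, the imprinted Mest at 779.8 and 784 TPM and Igf2. Tdgf1, a coreceptor of early embryos, had 2 counts in replicate 1 and 0 in replicate 2, and Prtg was under 1 TPM as given above. Over these lists, no gene met the rule for a difference between libraries.

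**Figure D5:**
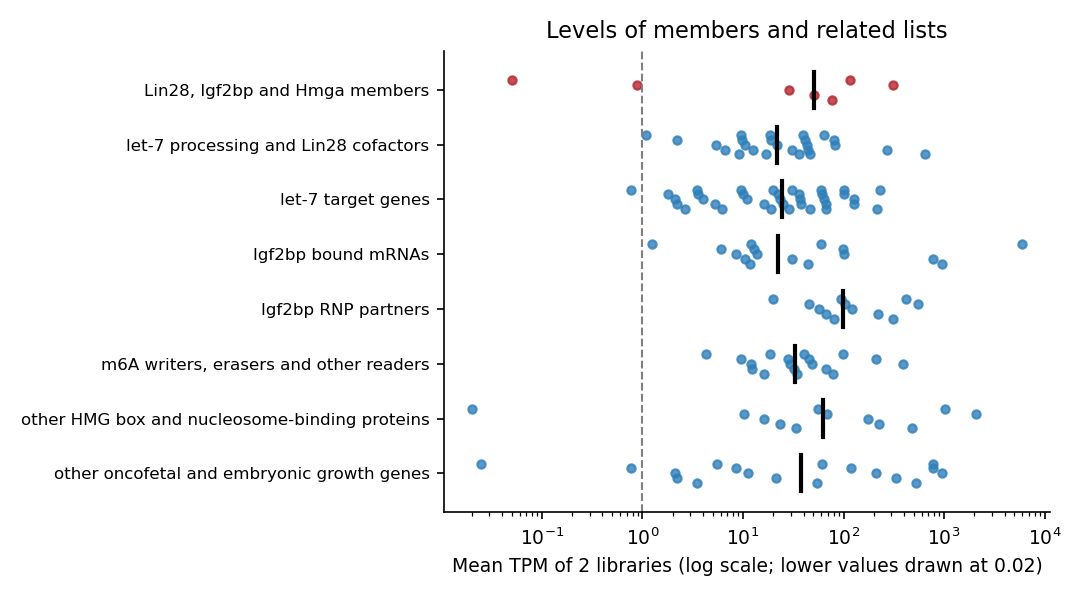
Mean TPM (log axis, values below 0.02 drawn there) of each member (red) and of each gene of 7 related lists (blue), with the list median as a black line and 1 TPM dashed. The members span 0.05 to 309.5 TPM around a median of 50.7, and 3 genes of the other lists lie below 1 TPM, Prtg (in 2 lists), Tdgf1 and Hmgb4.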

How the data were processed

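Total RNA of 2 E14.5 intestine libraries was quantified by the authors. Per the notes deposited with the tables, the genome was mm10, the annotation GENCODE M4, and each library was quantified separately. No quantification tool or strand setting is given in the sources used here. Estimated counts per gene and transcript were deposited by the authors, with fractions where reads map to several features. TPM values, with posterior mean TPM, come from the authors and cover every feature, spike-ins included. FPKM values were deposited beside them and used only as an alternative. The percent share of each isoform was deposited in the transcript tables. Interval bounds of TPM, taken as scores, were deposited by the authors with no level stated in the header.

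Symbols and coordinates came from GENCODE M21 (GRCm38, the same assembly, a later annotation), matching 42462 of 43346 genes. Residues are those of M21. The members and lists were chosen with earlier results of these data known. A gene counted as detected at 1 TPM or more in each library. Named genes were all members, their transcripts with a share of at least 5%, and of each list the 3 highest and, where at most 4 exist, those under 1 TPM; other names were chosen after values were seen. Counting intervals (95%, exact) and the limit of 3 counts take in only counting error, since reads copied by amplification are not separate molecules. Scaling factors came from edgeR 4.0.16 (TMM), DESeq2 1.42.0 and the 96 spike-ins, on rounded counts. The TMM and DESeq2 methods, not the spike-in scaling, were tried on simulated counts with a known depth ratio. The factors applied to these libraries were not themselves tested. The SD over 2 libraries is the spread of these samples, which may be technical. Scripts used Python 3.11.15, pandas 2.3.3, Biopython 1.88 and R 4.3.3.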

Additional observations from a re-analysis of the deposited data

How the results depend on the processing

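Over 55 alternative values of the counts reported, none moved by over 1.5 times, a wide limit for counts this small. At 5 TPM, detected let-7 targets fell from 35 to 27 and other oncofetal and embryonic growth genes from 16 to 13. The Igf2bp partners stayed at 12. Detected members numbered 5 or 6, with Lin28b added at 0.5 TPM, at 10 counts, after rescaling TPM over nuclear protein-coding genes and without replicate 2; without each replicate in turn the count ran from 5 to 6. No member differed between libraries with no minimum, a pseudocount of 0.1, posterior mean TPM, TMM, DESeq2 or spike-in scaling. All 7 members kept their rank with posterior mean TPM, FPKM and either library alone. By posterior mean shares 4 in place of 5 members had a transcript with at least 80%, as Lin28a was spread over transcripts with 0 counts. Of 15 alternative values of single levels, 11 moved by over 1 SD, an SD of only 2 libraries: rescaling multiplied each level by 1.31, and the posterior mean of Lin28a was 0.42 TPM against 0.05. No paired analysis was possible because the libraries form 1 group. Depth limits Lin28a, with 3 and 5 counts.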
